A study of Mus musculus with 12 samples.

Results

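Alisertib was added to navitoclax in mice that carried melanoma tumours, and the comparison described here sets the 3 tumour libraries of the animals given both drugs against the 3 tumour libraries of the animals given navitoclax alone. The libraries were chosen by the treatment in their labels. They are 6 of the 12 libraries of the study. Every gene that passed a filter on low values was tested, with the filter and the spread taken from all 12 libraries. Total RNA from B16F10 tumours was sequenced after ribosomal RNA depletion. B16F10 is a mouse melanoma cell line, here placed under the skin of C57Bl/6 mice at 50000 cells. The combination group received 25 mg/kg alisertib and 100 mg/kg navitoclax. The navitoclax group received 100 mg/kg navitoclax and no alisertib, so both groups carried the same dose of navitoclax. The alisertib group, at 25 mg/kg, and the vehicle group supplied the matching effect of alisertib in the absence of navitoclax. All animals were of the genotype labelled Wild and were dosed once a day by oral gavage for 11 days. Tumour, stroma and blood were sequenced together. The labels do not say whether the libraries of a group come from separate mice, so the p-values measure the spread between these libraries.

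Alisertib inhibits Aurora kinase A, which matures centrosomes and builds the mitotic spindle. Cells that fail in mitosis can activate p53, a transcription factor that induces the cell cycle inhibitor p21 (Cdkn1a), its own antagonist Mdm2, and several death genes. Navitoclax binds the anti-apoptotic proteins BCL2, BCL-XL (Bcl2l1) and BCL-W (Bcl2l2), which hold back BAX and BAK at the mitochondrion, and it is used experimentally to kill senescent cells that rest on these proteins.

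The libraries held between 26828210 and 36745417 assigned reads. Combination 3 and vehicle 2 stood apart from the rest: Gm26917 and Gm42418, 2 annotated genes that lie over ribosomal RNA sequence, took 73.7% and 63.3% of their reads. The same genes took 26.6% and 22.3% in the other combination libraries and 13.8% to 20.9% in the navitoclax libraries. Combination 3 therefore had 7082979 reads in all other genes, against 23834269 to 27580987 in the other 5 libraries compared, and 3 reads in it correspond to a normalized value of 10.9. Navitoclax 1 held skeletal muscle transcripts, described below. All values are the authors' normalized counts, and differences are log2 differences of value + 2 with their standard errors.

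Of 16993 genes tested, 202 differed between combination and navitoclax, 164 higher and 38 lower in the combination (limma with Benjamini-Hochberg adjustment, adjusted p under 0.05). These are 1.19%, 0.965% and 0.224% of the genes tested. At an unadjusted p under 0.05 there were 3079 of the 16993 genes. Over all genes tested edgeR called 182, DESeq2 1097 and voom 1628. The list counts given below by these measures stand beside these totals. The 3 combination values did not overlap the 3 navitoclax values in any of the 202 genes; over all genes tested, 29.0% did not overlap, 14.2% being higher and 14.8% lower in the combination. The median difference was 1.51 among the genes higher and −1.04 among the genes lower, against −0.03 over all genes tested. In bulk tumour RNA, fewer cells of a type and less RNA per cell cannot be told apart.

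The counts depended on single libraries. Leaving out combination 1 left 53 genes that passed, leaving out navitoclax 1, 2 or 3 left 70, 77 and 73, and leaving out combination 3 left 82. The count was 98, 99 and 112 without alisertib 1, 2 or 3 and 134 without vehicle 3. With the 6 libraries compared fitted alone, 13 genes passed, all of them higher and 0 lower. Combination 3, the library richest in ribosomal RNA, was looked at further. Its value was the highest of the 3 combination values in 121 of the 164 genes higher and the lowest in 23 of the 38 genes lower. The 82 genes that passed without it were 74 higher and 8 lower (0.483%, 0.435% and 0.0471% of the genes tested), and 81 of them were among the 202. All 164 genes higher kept a positive difference without it, with a median of 1.35, and all 38 genes lower kept a negative one, with a median of −0.92. These signs were fixed in advance, because the combination and navitoclax values of the 202 genes did not overlap. With vehicle 2 left out as well, 358 genes passed. Vehicle 2, the other library rich in ribosomal RNA, had a higher value than the mean of vehicle 1 and 3 in 106 of the same 164 genes and a lower value in 28 of the 38. The part of ribosomal RNA content in these differences was not tested.

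The promoters of 3 genes that passed are printed here because they carry the motif of the regulator that textbooks assign to their group. The windows are RefSeq promoters of build GRCm38.p6 and run 5′ to 3′ on the strand of the gene. Capitals mark the match to a p53 response element in Cdkn1a (chr17:29090729-29091028, plus strand), and to E2F sites in Mcm5 (chr8:75109259-75109558, plus strand) and Pola1 (chrX:93632106-93632405, minus strand).
Cdkn1a: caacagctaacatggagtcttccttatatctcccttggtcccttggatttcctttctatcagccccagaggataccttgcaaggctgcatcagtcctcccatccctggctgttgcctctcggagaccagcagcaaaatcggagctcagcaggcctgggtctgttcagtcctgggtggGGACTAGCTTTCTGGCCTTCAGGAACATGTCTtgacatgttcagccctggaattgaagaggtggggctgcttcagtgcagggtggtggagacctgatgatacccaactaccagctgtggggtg
Mcm5: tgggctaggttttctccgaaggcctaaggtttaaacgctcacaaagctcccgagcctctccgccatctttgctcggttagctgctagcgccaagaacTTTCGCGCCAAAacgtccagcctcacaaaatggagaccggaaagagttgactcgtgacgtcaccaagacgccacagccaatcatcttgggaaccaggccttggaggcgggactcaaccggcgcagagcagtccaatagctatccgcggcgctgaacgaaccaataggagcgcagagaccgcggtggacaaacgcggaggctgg
Pola1: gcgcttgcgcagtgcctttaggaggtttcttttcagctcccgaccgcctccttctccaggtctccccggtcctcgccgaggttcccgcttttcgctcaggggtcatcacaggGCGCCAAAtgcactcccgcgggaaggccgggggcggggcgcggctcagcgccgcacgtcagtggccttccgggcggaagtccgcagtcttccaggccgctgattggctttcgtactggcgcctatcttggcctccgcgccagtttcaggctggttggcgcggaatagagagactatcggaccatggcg
The p53 response element was searched as a pair of decamers up to 13 bases apart, on both strands. It was found in 24 of 32851 promoter windows (0.0731%), in 1 of 170 windows of 124 genes higher in the combination, which is that of Cdkn1a, and in 0 of 33 windows of 26 genes lower. The match in Cdkn1a begins 73 bases before the annotated start, and its capitals include the bases between the decamers. Neighbouring letters that miss the pattern were not marked, so the capitals need not cover the whole element. The E2F site was searched on both strands as TTTGGCGC, TTTCCCGC, TTTGCCGC or TTTCGCGC; the capitals of Mcm5 span 2 overlapping matches. At least 1 such site lay in 2.26% of all windows, in 1.18% of the windows of genes higher (Bcl2l1 and Pmm1) and in 8 of 33 windows, or 24.2%, of genes lower. Those 8 belong to Cnn2, Dnmt1, Mcm5, Ncapg2, Nup210, Pola1, Pold3 and Sinhcaf. The letters TTTGAA, part of the element of genes expressed late in the cell cycle, lay in 17.9% of all windows, 14.1% of those of genes higher and 21.2% of those of genes lower. All windows are those of 27025 genes and include genes that were not tested, so they are not matched to the genes that passed. A match describes these letters in these windows and is not a measured binding site.

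Genes of the p53 response for arrest, feedback and repair were higher in the combination. Of 20 members tested, 8 rose, 0 fell and 12 did not pass, with a median difference of 0.99; Perp was under the filter. At an unadjusted p under 0.05 there were 15, and edgeR called 8, DESeq2 12 and voom 14. Cdkn1a, which encodes the CDK inhibitor p21 (GRCm38 chr17:29090976-29100727), had normalized values of 12511, 10509 and 14794 in the combination and of 2718, 4039 and 3706 under navitoclax. Each combination tumour exceeded the highest navitoclax tumour by more than the whole range of the navitoclax group, and the difference was 1.86 ± 0.20 (limma, adjusted p = 0.00157). Zmat3, an RNA-binding protein that regulates splicing, had 11133, 9907 and 11450 against 4258, 4216 and 3876, a difference of 1.39 ± 0.13 (adjusted p = 0.00101). Mdm2, the ubiquitin ligase that degrades p53, had 5694, 5738 and 7582 against 2532, 2449 and 2226. Its difference was 1.39 ± 0.16 (adjusted p = 0.00224), with combination 3 the highest. Ccng1, cyclin G1, a feedback regulator of MDM2, had 13002, 12902 and 20150 against 4326, 4971 and 4563, and rose by 1.70 ± 0.19. Btg2, an antiproliferative gene that promotes mRNA deadenylation, had 1352, 1179 and 1730 against 241, 384 and 286. At 2.22 ± 0.26 it had the largest difference of the 8.

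The other 3 of the 8, named after their values were seen, were Trp53inp1, which promotes p53 phosphorylation and autophagy (1.94 ± 0.25), Sesn2, a leucine sensor that restrains mTORC1 (1.38 ± 0.21), and Aen, a p53-induced nuclease (0.92 ± 0.14). Combination 3 was the lowest of its group in Trp53inp1, at 5808 against 6742 and 6975, and in Aen, at 2841 against 3450 and 3450. All 8 passed without combination 3, where the median of the list was 1.14. Sesn2 did not pass without combination 1 (adjusted p = 0.0652), and Aen did not pass without combination 1 or without navitoclax 3 (adjusted p up to 0.0621). The 6 others passed whichever of the 12 libraries was left out. Of the members that did not pass, 4 are given that were also chosen after their values were seen. Phlda3, an AKT repressor, had 11800, 8262 and 34532 against 2606, 3713 and 3724. Its groups did not overlap, but combination 3 stood far above the others and the difference of 2.18 ± 0.54 had an adjusted p of 0.0818. Rrm2b, Tigar and Ddb2, a p53-induced ribonucleotide reductase subunit, a glycolysis regulator and a repair factor, were close to 0 at −0.27, −0.24 and −0.18.

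**Figure D1:**
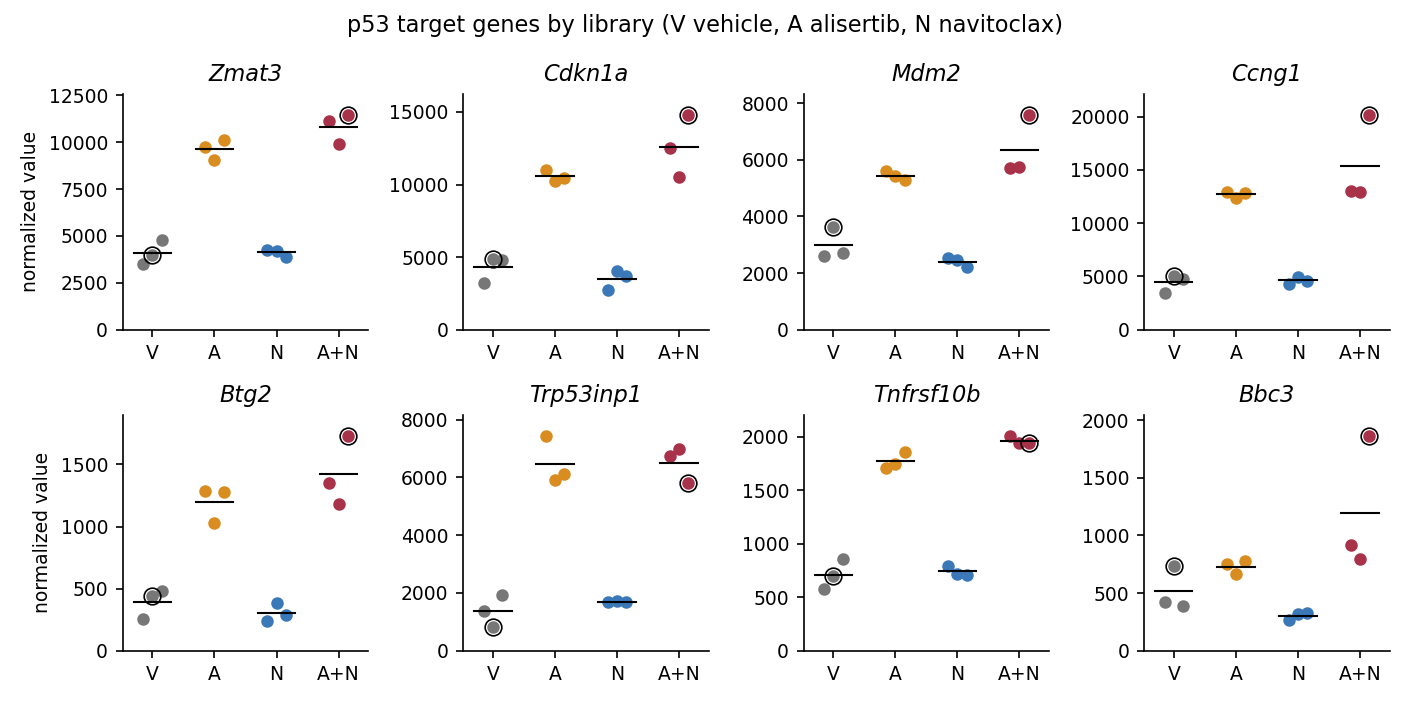
Normalized values of 8 p53 target genes in all 12 libraries. Each point is 1 library, the line is the group mean, and a ring marks the libraries rich in ribosomal RNA (vehicle 2 and combination 3). Groups are vehicle (V), alisertib (A), navitoclax (N) and both drugs (A+N). In each of the 8 genes the 3 A+N libraries lie above the 3 N libraries. The 8 were drawn from genes that passed, none of which had overlapping groups, against 29.0% without overlap over all genes tested.

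Other genes known as p53 targets were also among those that passed, chosen here after their values were seen. Pidd1, a scaffold of the PIDDosome that activates caspase-2 after failed cytokinesis, had 2001, 2091 and 3177 against 637, 771 and 580, a difference of 1.85 ± 0.20 (limma, adjusted p = 0.00157). Ercc5, an endonuclease of nucleotide excision repair, had 2871, 2592 and 3713 against 1053, 1058 and 926 and rose by 1.58 ± 0.16. Rbm38, an RNA-binding protein that stabilizes Cdkn1a mRNA, rose by 1.24 ± 0.14. Ptp4a3, a phosphatase, had 6885, 7903 and 8179 against 2303, 2852 and 2333, a difference of 1.62 ± 0.13 with an adjusted p of 0.000313. These 4 genes passed without any 1 of the 12 libraries.

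Among death genes, 3 groups were read. The pro-apoptotic BCL2 proteins had 2 of 10 members higher and 0 lower, with a median of 0.34. Bbc3 (PUMA), a BH3-only protein that binds all anti-apoptotic members, had 920, 794 and 1864 in the combination against 262, 322 and 331, a difference of 1.86 ± 0.31 (limma, adjusted p = 0.0189). Bax, which permeabilizes the mitochondrial membrane, had 3486, 3105 and 3311 against 1460, 1573 and 2000, a difference of 0.99 ± 0.16 (adjusted p = 0.0161). Both groups of values lay apart, and in Bbc3 the library rich in ribosomal RNA was the highest. Bbc3 passed without combination 3, at 1.49, but not without combination 1 or any 1 navitoclax library (adjusted p up to 0.0887). Bax did not pass without combination 1, navitoclax 1 or navitoclax 2 (adjusted p up to 0.0950). Bid was at 0.48 ± 0.20, Bik at 0.87 ± 0.46 and Bcl2l11 at −0.40 ± 0.28, none of which passed.

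Death receptors and caspases had 5 of 15 members at an unadjusted p under 0.05, and edgeR called 1, DESeq2 4 and voom 4. Under limma with adjustment, 1 of the 15 was higher and 0 were lower, with a median of 0.22. The member was Tnfrsf10b, the mouse TRAIL receptor (GRCm38 chr14:69767472-69784411), with 2005, 1936 and 1936 in the combination against 794, 717 and 710. The spread within either group was small beside the gap between them, and the difference was 1.40 ± 0.14 (limma, adjusted p = 0.00112), kept without any 1 library. Apaf1, the core of the apoptosome, had 2561, 2507 and 3297 against 2007, 1500 and 1554 and did not pass (0.73 ± 0.16, adjusted p = 0.0657). Fas, a death receptor at low level here, had 38.8, 50.2 and 7.24 against 8.27, 4.74 and 10.3. Its groups overlapped, combination 3 being below the level of 3 reads, and the difference of 1.51 ± 0.64 did not pass.

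Transcripts of the proteins that navitoclax binds were measured in the same libraries, and no protein was measured. Bcl2l1 (GRCm38 chr2:152780668-152831728) was 1 of 5 anti-apoptotic genes tested that passed, and 0 fell. It had 5385, 4344 and 6333 in the combination against 2405, 2409 and 2441 under navitoclax, a difference of 1.13 ± 0.19 (limma, adjusted p = 0.0208). Without combination 3 the difference was 0.999 and did not pass (adjusted p = 0.0736). It also did not pass without combination 1 or any 1 navitoclax library, with adjusted p up to 0.103. Bcl2 had 5323, 4362 and 5038 against 5134, 3084 and 4057, which overlapped (0.29 ± 0.17, adjusted p = 0.368). Bcl2l2 had 1436, 1344 and 1332 against 1213, 1649 and 1335 (−0.02 ± 0.15, adjusted p = 0.953). Mcl1, an anti-apoptotic protein that navitoclax does not bind, had 6020 and 5086 in combination 1 and 2 and 26328 in combination 3, against 4045, 3835 and 4779. Its difference of 1.15 ± 0.62 did not pass, and it was 0.40 without combination 3.

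Aurka, the target of alisertib, had 984, 1097 and 1097 in the combination against 1121, 1425 and 1286, and did not pass (−0.26 ± 0.18, adjusted p = 0.417). None of 11 Aurora kinases and partners passed (5 at an unadjusted p under 0.05; edgeR called 0, DESeq2 5 and voom 5), with a median of −0.55 and 10 of 11 negative. Incenp, a subunit of the chromosomal passenger complex, came nearest at −0.64 ± 0.14 (limma, adjusted p = 0.0556), followed by Tpx2, an activator of Aurora A, at −0.62 ± 0.14 (adjusted p = 0.0610) and Plk1, a mitotic kinase, at −0.72 ± 0.19.

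Genes of S phase were lower in the combination. All 28 members of the DNA replication and nucleotide synthesis list were negative, with a median of −0.55; 4 fell, 0 rose and 24 did not pass. The list held 18 members at an unadjusted p under 0.05, and edgeR called 3, DESeq2 13 and voom 19. Mcm5, a subunit of the replicative helicase whose promoter is printed above, had 1781, 2351 and 2016 in the combination against 3356, 3553 and 3156, a difference of −0.72 ± 0.14 (limma, adjusted p = 0.0388). Pola1, the catalytic subunit of the polymerase that starts DNA strands, had 739, 895 and 597 against 1436, 1441 and 1236 and fell by 0.90 ± 0.18. Tyms, which makes thymidylate, had 446, 688 and 416 against 1110, 1075 and 964 and fell by 1.05 ± 0.21. Tk1, the S-phase thymidine kinase, fell by 0.84 ± 0.17. In all 4 the groups lay apart, yet each had an adjusted p above 0.038 and lost its call in 9 or 10 of the 12 fits that left out 1 library, with adjusted p up to 0.162. Without combination 3, 0 of the 28 passed under limma or edgeR and the median was −0.59, with all 28 negative. With vehicle 2 left out as well, 8 passed. When the 6 libraries compared were fitted alone, no gene of any list passed as lower.

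Mitosis genes behaved alike in sign. Of 30, 29 were negative with a median of −0.67; 2 fell, 0 rose and 28 did not pass. Unadjusted, 23 had a p under 0.05, and edgeR called 1, DESeq2 10 and voom 18. Top2a, the topoisomerase that untangles sister chromatids (GRCm38 chr11:98992943-99024189), had 4518, 6478 and 3742 in the combination against 10070, 10406 and 8717, a difference of −1.02 ± 0.20 (limma, adjusted p = 0.0409). Bub1b, a spindle checkpoint kinase-like protein, had 1367, 1628 and 1270 against 2501, 2448 and 2042 and fell by 0.71 ± 0.14. Ccna2 (cyclin A2) at −0.69 ± 0.15 and Mki67, the proliferation antigen Ki-67, at −0.74 ± 0.16 had adjusted p of 0.0507 and 0.0554. The median difference of combination 3 from the mean of combination 1 and 2 was −0.51 in this list, and that of vehicle 2 from the mean of vehicle 1 and 3 was −0.25. Without combination 3 the list had a median of −0.55 and 0 members passed under limma or edgeR, and 5 passed with vehicle 2 left out as well.

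The G1 list moved in both directions. Of 23 members, 3 rose and 1 fell, with a median of −0.07. The list held 10 members at an unadjusted p under 0.05, and edgeR called 4, DESeq2 7 and voom 10. Besides Cdkn1a, 2 D-type cyclins, which start G1, rose: Ccnd1 had 33966, 30405 and 49543 in the combination against 14790, 18874 and 16776 (1.15 ± 0.19, limma, adjusted p = 0.0179), and Ccnd2 had 77161, 56077 and 73667 against 32575, 39537 and 34608 (0.95 ± 0.17, adjusted p = 0.0264). Ccnd1 did not pass without combination 1, navitoclax 1 or navitoclax 3 (adjusted p up to 0.0868). Ccnd2 did not pass without combination 1, combination 3, alisertib 2 or any 1 navitoclax library (adjusted p up to 0.127). E2f8, an E2F that represses transcription and is itself made in S phase, had 385, 613 and 398 against 1259, 1209 and 951 and fell by 1.31 ± 0.25. Cdkn1b, which encodes the inhibitor p27, had 2526, 2469 and 2417 against 3490, 4177 and 3557 and did not pass (−0.59 ± 0.14, adjusted p = 0.0661).

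Chromatin genes that are made with DNA were mostly negative. Of 65 replication-dependent histone genes, 59 were negative with a median of −0.70, and 2 fell (31 at an unadjusted p under 0.05; edgeR called 2, DESeq2 18 and voom 33). Hist1h1e, a linker histone, had 5011, 6900 and 5906 in the combination against 12413, 12828 and 12023, a difference of −1.08 ± 0.17 (limma, adjusted p = 0.0125), and it passed without combination 3. It did not pass without combination 1 or any 1 navitoclax library (adjusted p up to 0.0696). Hist1h2bk fell by 1.29 ± 0.25. Histone genes resemble each other closely, so reads may have been divided among copies. Hmgb2, a chromatin protein of dividing cells that is lost in senescence, had 682, 1103 and 637 against 1613, 2028 and 1861 and fell by 1.22 ± 0.23, as 1 of 8 lamins and HMG proteins. Lmnb1 (lamin B1), whose loss also marks senescent cells, was at −0.50 ± 0.23 and did not pass. Of 15 genes of DNA damage signalling and repair, 1 fell: Blm, a helicase of recombination, had 323, 392 and 261 against 724, 683 and 597 (−1.05 ± 0.21). The list median was −0.62, with 9 members at an unadjusted p under 0.05 (edgeR called 1, DESeq2 6 and voom 8). Of the 8 lamins and HMG proteins, 4 had such a p (edgeR called 1, DESeq2 3 and voom 4). Hmgb2, Blm, E2f8, Hist1h2bk, Top2a and Bub1b did not pass without combination 3 (adjusted p from 0.101 to 0.121), nor without any 1 navitoclax library. Bub1b also did not pass without combination 1 (limma, adjusted p = 0.142), vehicle 1, vehicle 3 or any 1 alisertib library.

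**Figure D2:**
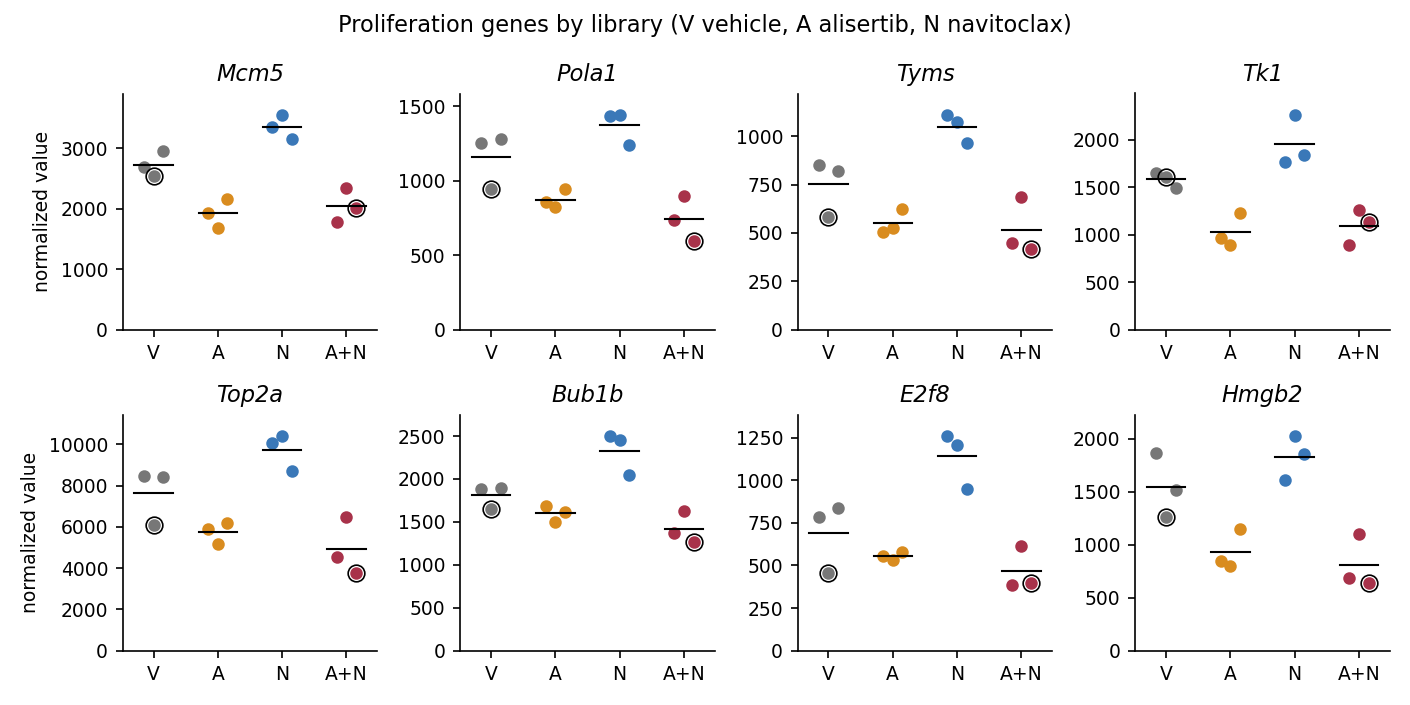
Normalized values of 8 proliferation genes in all 12 libraries, drawn with the same groups and marks as the plot of p53 targets. In each gene the 3 A+N libraries lie below the 3 navitoclax libraries, while the navitoclax mean lies above the vehicle mean. These 8 were also drawn from genes that passed, so their groups could not overlap and high navitoclax values were favoured.

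For these genes the navitoclax mean lay above the vehicle mean, though they were chosen for combination values below the navitoclax values. That choice favours high navitoclax values, so the order of navitoclax and vehicle is a description only. Tyms had 851, 581 and 820 under vehicle and 505, 528 and 621 under alisertib alone, and navitoclax minus vehicle was 0.50 ± 0.21 with combination minus vehicle at −0.55. Top2a had 8442, 6113 and 8417 under vehicle and 5900, 5177 and 6173 under alisertib. Its navitoclax minus vehicle was 0.36 ± 0.20 and its combination minus vehicle −0.66. E2f8 was at 0.76 ± 0.25 and −0.56 in the same order. None of these 6 differences from vehicle passed (limma, adjusted p from 0.12 to 0.70). They share the vehicle libraries with each other and a treated group with the comparison above.

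Genes that passed with a mean value of at least 30 over the 6 libraries were ranked after clone names, such as Gm and Rik symbols, were left out. The 10 largest rises among them lay in genes that no list held. Svop, a synaptic vesicle protein of the transporter superfamily (GRCm38 chr5:114026910-114091570), had 824, 656 and 1755 in the combination against 29.8, 41.9 and 35.7 under navitoclax. The lowest combination value lay far above the highest navitoclax value. The ratio of the means was 30.1 and the log2 difference 4.72 ± 0.37 (limma, adjusted p = 0.000313). Cpz, a secreted carboxypeptidase with a Wnt-binding domain (GRCm38 chr5:35502218-35525698), had 400, 383 and 568 against 21.5, 28.5 and 22.2, a ratio of means of 18.7 and a difference of 4.11 ± 0.31 (adjusted p = 0.000313). Svop and Cpz passed without any 1 library. Dusp15, a dual-specificity phosphatase, had 89.7, 57.9 and 170 against 4.96, 1.58 and 5.55, a difference of 4.10 ± 0.61. Navitoclax 2 was under the level of 3 reads in it, and without combination 1 or navitoclax 2 it did not pass (adjusted p up to 0.0569).

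Plcd4, a phospholipase C, had 289, 176 and 232 against 60.4, 11.1 and 2.38 (3.91 ± 0.74), and Timp4, an inhibitor of matrix metalloproteinases, had 417, 55.3 and 297 against 8.27, 24.5 and 10.3 (3.69 ± 0.73). In both the values within a group spread widely. Bglap2, an osteocalcin gene, rose by 3.09 ± 0.41 and passed without any 1 library. The remaining 4 of the 10 largest rises were Sec14l5, a lipid-transfer protein (3.07 ± 0.50), Mylk3, a myosin light chain kinase (2.87 ± 0.52), Kcnt1, a sodium-activated potassium channel (2.83 ± 0.53), and Nectin4, an adhesion protein (2.69 ± 0.54). Plcd4, Timp4, Sec14l5, Mylk3, Kcnt1 and Nectin4 did not pass without combination 3 (limma, adjusted p from 0.0620 to 0.129) nor without combination 1 (adjusted p up to 0.155 over all libraries left out). Of these, Plcd4 and Nectin4 also did not pass without vehicle 3, navitoclax 2, navitoclax 3 or any 1 alisertib library. With edgeR on all 12 libraries they did not pass either (adjusted p = 0.0809 and 0.0508). Kcnt1 also did not pass without any 1 navitoclax library or without alisertib 2.

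Among the 10 largest falls, Chac1, a glutathione-degrading enzyme induced by the integrated stress response (GRCm38 chr2:119351229-119354381), had 77.6, 68.1 and 61.5 in the combination against 153, 691 and 243. The combination libraries lay close together while the navitoclax libraries spread widely, and the difference was −2.07 ± 0.42 (limma, adjusted p = 0.0419). It did not pass without 9 of the 12 libraries, combination 3 among them (adjusted p = 0.123). Hoxb9, a homeobox factor, had 42.5, 50.2 and 65.1 against 113, 261 and 133 and fell by 1.57 ± 0.30. Ccn1 (CYR61), a matrix protein induced by YAP, had 327, 467 and 409 against 886, 1230 and 981 and fell by 1.36 ± 0.22, as 1 of 12 YAP targets and Hippo kinases that passed. Nt5dc2 fell by 1.32 ± 0.20, and Mpp6, a scaffold protein, by 1.31 ± 0.19, the latter passing without any 1 library. Atad2, a bromodomain ATPase of dividing cells, fell by 1.23 ± 0.26 and Cacnb4, a calcium channel subunit, by 1.22 ± 0.20. Hoxb9 and Atad2 did not pass without combination 3 (adjusted p = 0.0509 and 0.130). Ccn1, Nt5dc2 and Cacnb4 passed without it but not without combination 1, nor without 2 or 3 of the navitoclax libraries (adjusted p up to 0.0885).

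**Figure D3:**
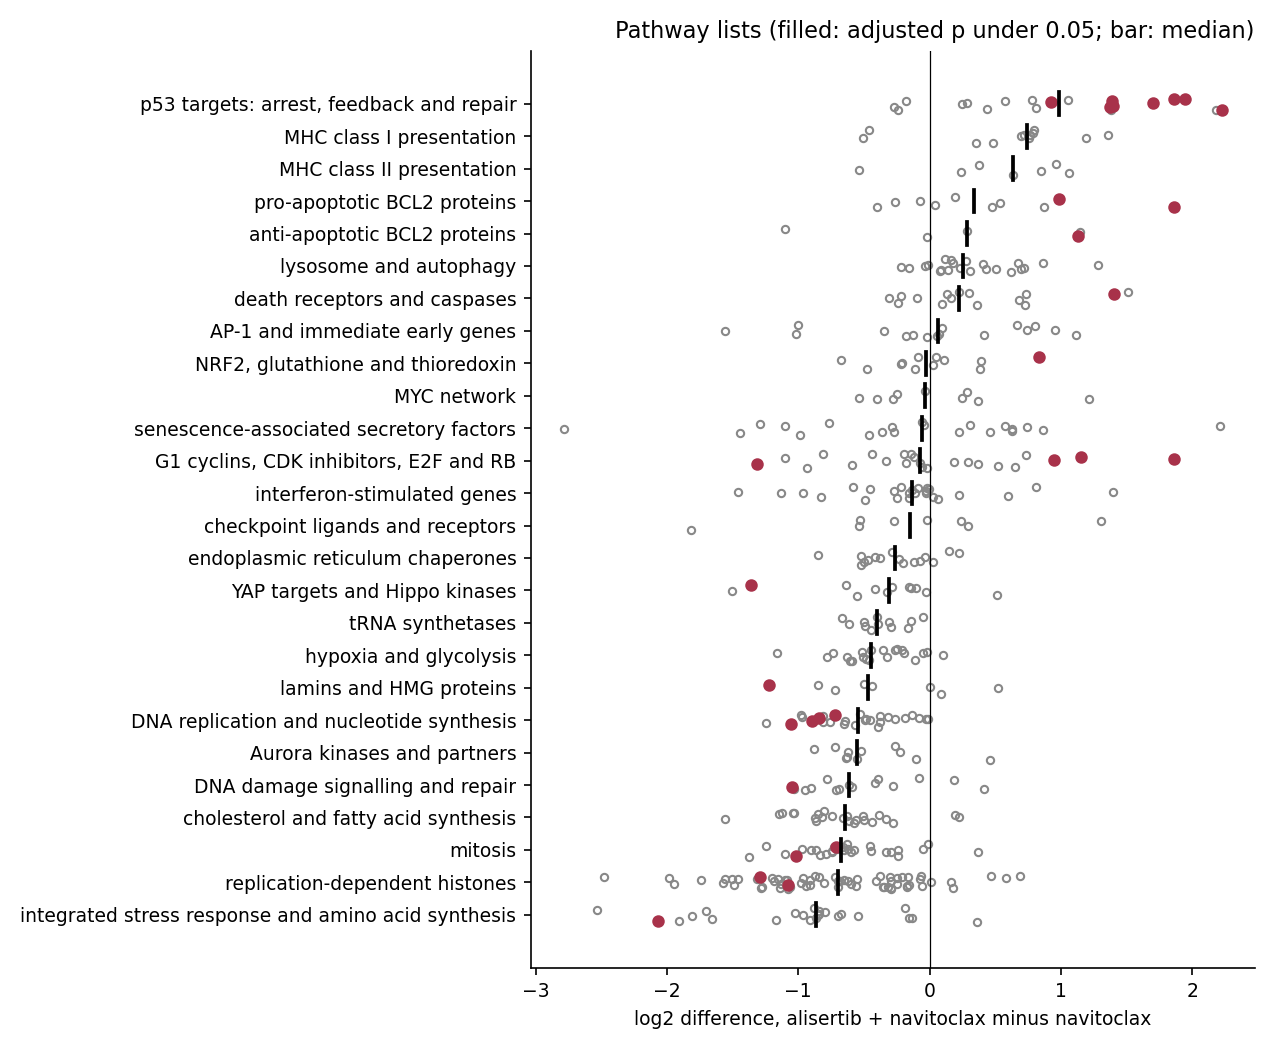
Log2 difference (combination minus navitoclax) of each tested member of the pathway lists, 1 list a row, ordered by the median (black bar). Filled points have an adjusted p under 0.05; the p53 list has the highest median (0.99) with 8 of 20 members filled, and the integrated stress response list the lowest (−0.86) with 1 of 23.

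Stress and metabolic lists held few genes that passed. In the list of the integrated stress response and amino acid synthesis, 22 of 23 members were negative with a median of −0.86, and Chac1 was the member that fell. Without adjustment 17 members had a p under 0.05, and edgeR called 1, DESeq2 11 and voom 7. Mthfd2, a mitochondrial folate enzyme, had 983, 1440 and 655 in the combination against 2027, 5542 and 2618 and did not pass (−1.66 ± 0.36, limma, adjusted p = 0.0532). Fgf21, a stress-induced hormone, had 7.40, 0.852 and 3.62 against 11.6, 60.1 and 32.5 and did not pass, with combination 2 and 3 below the level of 3 reads. Under navitoclax alone Fgf21 was already far below vehicle, where it had 745, 350 and 909. None of 16 endoplasmic reticulum chaperones (median −0.26), 12 tRNA synthetases (−0.40), 21 hypoxia and glycolysis genes (−0.45) or 24 cholesterol and fatty acid synthesis genes (−0.64) passed under limma. At an unadjusted p under 0.05 these lists held 5, 6, 4 and 18 members, beside 3079 of all 16993 genes tested. In that order edgeR called 0 in each, DESeq2 2, 1, 0 and 5, and voom 4, 2, 1 and 16. Over all genes tested these tools called 182, 1097 and 1628. In the cholesterol list 22 members were negative, with Scd1, a fatty acid desaturase, at −0.82 ± 0.21. None of 22 lysosome and autophagy genes passed either (6 at an unadjusted p under 0.05; edgeR 0, DESeq2 5, voom 6), and 18 were positive with a median of 0.25; Ctsd, a lysosomal protease, had 23491, 22788 and 44223 against 9116, 12955 and 13965 (1.28 ± 0.30, adjusted p = 0.0742). Gss, glutathione synthetase, rose by 0.84 ± 0.17 as 1 of 12 genes of the NRF2 list, and did not pass without combination 3 (adjusted p = 0.117).

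Secretory, signalling and immune lists had 0 members that passed under limma or edgeR. At an unadjusted p under 0.05 there were 2 secretory factors, 1 interferon-stimulated gene, 7 AP-1 genes, 2 MYC network genes, 1 checkpoint gene and 0 MHC genes. Over all genes tested there were 3079 of 16993. DESeq2 called 1 AP-1 and 1 MYC network gene, and voom called 3 and 1 of these with 1 secretory factor and 1 interferon-stimulated gene. The 21 senescence-associated secretory factors tested had a median of −0.06 and spread from −2.79 to 2.21. Il1b, an inflammatory cytokine, had 1.85, 3.41 and 0 in the combination against 40.5, 6.33 and 36.5, with 2 combination values under the level of 3 reads, and did not pass (limma, adjusted p = 0.0802). The 25 interferon-stimulated genes had a median of −0.14, the 16 AP-1 and immediate early genes 0.07, the 9 MYC network genes −0.03 and the 8 checkpoint ligands and receptors −0.15. MHC class I genes had a median of 0.74 with 10 of 12 positive, and MHC class II genes 0.64 with 6 of 7 positive. In both MHC lists the groups of every tested member overlapped. The medians of the immune lists turned on navitoclax 2 and 3: that of MHC class I was −0.02 without navitoclax 2 and 1.55 without navitoclax 3, that of MHC class II −0.64 and 1.69, and that of the interferon-stimulated genes −0.96 and 0.58.

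Cell type markers were summed per library to see what else the tumours held, and 0 markers passed in any list under limma. At an unadjusted p under 0.05 there were 7 macrophage, 2 endothelial, 1 erythroid, 1 fibroblast and 1 melanocyte markers, edgeR called 0, and DESeq2 and voom called at most 1 in a list. The 19 melanocyte and pigment genes summed to 764648, 755393 and 587048 in the combination and to 648389, 647843 and 748858 under navitoclax, so the labelled tumour type was present in all 6 libraries. The 18 macrophage and monocyte genes summed to 10318, 20619 and 20364 against 7619, 4479 and 11315. These sums overlapped (exact permutation test, two-sided p = 0.2, where 3 against 3 cannot go below 0.1), and 15 of 17 tested members were positive with a median of 0.80. Skeletal muscle genes summed to 180750 in navitoclax 1 and to between 474 and 2305 in the other 5 libraries. The list median of −2.89, with 16 of 16 negative, was −0.32 without navitoclax 1. Erythroid genes summed to 960, 2480 and 1708 against 12439, 1938 and 4468. Fibroblast and matrix genes reached 253126 in combination 3 against 63314 to 115109 in the other 5. Vehicle 2 had 200956 for the same list, above vehicle 1 and 3 at 70797 and 84607. Endothelial sums overlapped at 14505 to 19901 and 14382 to 17981. Sums of neutrophil, dendritic, T and NK, B cell and adipocyte markers were at most 985 in the 6 libraries, and Ly6g was at 0 in all 6 libraries. Keratinocyte markers summed to 224 in combination 3 and to at most 2.55 in the other 5. The part of these cells in the differences above was not tested.

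**Figure D4:**
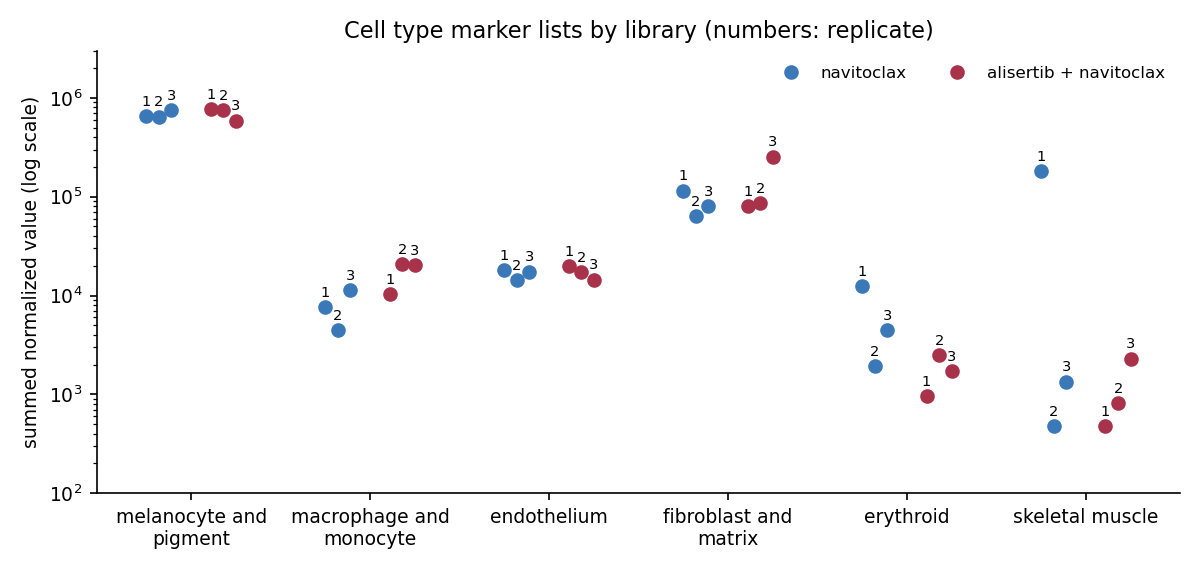
Summed normalized values of 6 cell type marker lists on a log scale, for the 3 navitoclax and the 3 combination libraries, with the replicate number above each point. Navitoclax 1 stands alone in skeletal muscle at 180750, and combination 3 is the highest in fibroblast and matrix at 253126.

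The same step, adding alisertib, was also made without navitoclax, and the alisertib and vehicle libraries share none with the comparison above except in the spread estimated by the model. There, 148 genes passed, 94 higher and 54 lower (0.871%, 0.553% and 0.318% of the genes tested). Of them 63 passed the same way in both settings, 58 higher and 5 lower, which is 31.2% of the 202 and 42.6% of the 148. No gene passed in opposite directions. Of the 164 genes that rose when alisertib was added to navitoclax, 159 were also positive without navitoclax, and all 38 that fell were also negative. All 94 genes that rose with alisertib alone were positive here, with a median of 1.36, and 51 of the 54 that fell were negative, with a median of −0.79. Over all genes tested 47.6% had the same sign in both settings, and Pearson's r across genes, which are not independent replicates, was 0.145.

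For the p53 genes both effects of alisertib are given side by side. Zmat3 had 9722, 9033 and 10123 under alisertib and 3514, 3999 and 4759 under vehicle, a difference of 1.24 ± 0.13 (limma, adjusted p = 0.00141) beside 1.39 ± 0.13 with navitoclax. Cdkn1a had 10974, 10260 and 10482 under alisertib and 3247, 4874 and 4802 under vehicle, a difference of 1.32 ± 0.20 (adjusted p = 0.0127) beside 1.86 ± 0.20. The difference between those effects was 0.54 ± 0.29 for Cdkn1a and 0.15 ± 0.19 for Zmat3, neither of which passed (adjusted p = 0.436 and 0.661). The p53 list as a whole had 11 of 20 members higher with alisertib alone, with a median of 0.90 beside 0.99. Bbc3 differed by 0.56 ± 0.31 with alisertib alone and did not pass, beside 1.86 ± 0.31 with navitoclax. The difference of 1.31 ± 0.44 between these effects did not pass (adjusted p = 0.436). For Tnfrsf10b the effects were 1.33 ± 0.14 and 1.40 ± 0.14.

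The integrated stress response list had 6 of 23 members lower with alisertib alone and a median of −1.05, beside 1 and −0.86 with navitoclax. Chac1 was 90.2, 81.8 and 79.5 under alisertib and 667, 689 and 700 under vehicle. Navitoclax 2, at 691, lay within the vehicle range, and the other 8 treated libraries were at 243 or lower. The mitosis list had a median of −0.16 with alisertib alone and −0.67 with navitoclax, and the interferon list 0.53 and −0.14; no member of either list passed a test of that difference. The median log2 difference of the 164 genes higher was 0.88 without navitoclax and 1.51 with it, and that of the 38 genes lower −0.46 and −1.04. These genes were chosen for passing with navitoclax, so the medians with navitoclax are a description with no test.

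**Figure D5:**
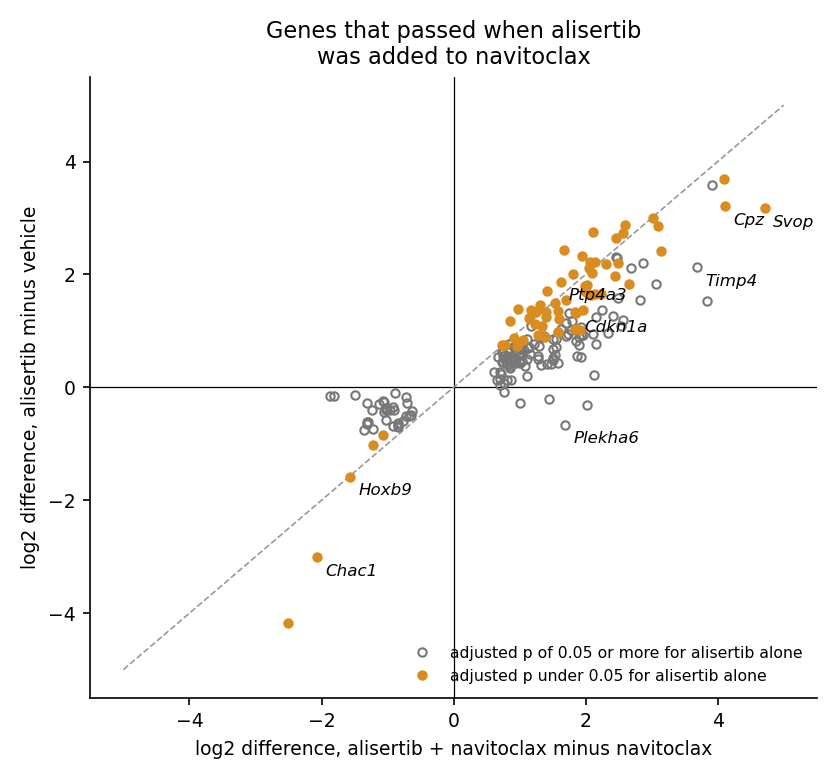
The 202 genes that passed when alisertib was added to navitoclax, by that log2 difference (x axis) and by the log2 difference of alisertib minus vehicle (y axis). Filled points also have an adjusted p under 0.05 on the y axis, the dashed line marks equal differences, and 159 of 164 genes on the right lie above 0 while all 38 on the left lie below 0.

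The difference between both effects of alisertib, with navitoclax minus without, was tested in every gene. Avil alone passed (0.00588% of the genes tested; 1449 genes at an unadjusted p under 0.05). Avil (GRCm38 chr10:127000709-127020994), which encodes advillin, an actin-binding protein of sensory neurons, had 375, 292 and 291 under vehicle, and 25.5, 22.9 and 24.3 under alisertib. It had 28.1, 44.3 and 19.0 under navitoclax and 41.6, 35.8 and 61.5 under both drugs. The vehicle values lay far above those of all 3 drug groups, the navitoclax values overlapped those of both other drug groups, and the difference between effects was 4.21 ± 0.45 (limma, adjusted p = 0.0198). Without any 1 vehicle library, any 1 alisertib library, combination 1 or navitoclax 1, Avil did not pass and 0 genes did.

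The next 4 genes by p did not pass. Sspo, a secreted protein of the cerebrospinal fluid, had 814, 1179 and 804 under vehicle and between 20.4 and 71.2 in the 9 treated libraries (4.24 ± 0.58, limma, adjusted p = 0.120). Otog, otogelin of the inner ear (4.45 ± 0.79), and Abca4, a retinal lipid transporter (2.87 ± 0.54), had the same order, with vehicle at 203 to 252 and at 115 to 274 and all treated libraries at 12.7 or lower and at 30.5 or lower. Col20a1, a collagen, had another pattern. It had 1695, 1569 and 1990 in the combination and 767, 1057 and 806 under navitoclax, with 1408, 1478 and 1499 under vehicle and 1417, 1120 and 1090 under alisertib. It rose by 1.005 ± 0.16 when alisertib was added to navitoclax (adjusted p = 0.0151) and was at −0.28 ± 0.16 when it was added to vehicle. Plekha6, chosen after its values were seen, was low under navitoclax at 63.7, 54.6 and 75.4 and had 197, 152 and 315 with both drugs. Vehicle had 334, 385 and 199, and the alisertib group 228, 173 and 163. Its difference from navitoclax was 1.69 ± 0.32, its navitoclax minus vehicle difference −2.17 ± 0.32 and its combination minus vehicle difference −0.48. Col20a1 and Plekha6 did not pass the comparison with navitoclax without combination 3 (adjusted p = 0.0509 and 0.0942) or without combination 1.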

How the data were processed

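RNA was extracted from B16F10 tumours, depleted of ribosomal RNA and made into directional libraries, per the labels' protocols. Tools listed in the submitters' processing notes are the aligner HISAT2 2.0.6, the counter featureCounts of Subread 1.5.1, and DESeq2, and the genome build is given there as GRCm38.p4 and as mm10. The annotation and the strand setting of counting are not given in the sources used here, so reads of a gene and of one that overlaps it may not be separated. The authors deposited 1 table of normalized counts, a signal in which each library's read counts are divided by a size factor. All values were whole multiples of 1 step per library within 0.001, and the reads were recovered by dividing by it. For vehicle 1 the step is almost 1, which the values alone cannot set apart from raw counts.

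Of 50600 genes, 50376 matched GENCODE M21, which gave symbols and coordinates. The filter kept 16993 genes whose value reached 10 in 3 or more of the 12 libraries. log2(value + 2) was fitted with limma 3.58.1 (R 4.3.3; group means over 12 libraries, trend and robust moderation), and p-values were adjusted over all genes tested by Benjamini-Hochberg with a threshold of 0.05. A log2 difference with this pseudocount understates the change of genes at low values. The contrasts were combination minus navitoclax, alisertib minus vehicle and the difference between these. Alternatives were edgeR 4.0.16, DESeq2 1.42.0 and limma-voom with quality weights on recovered reads, other scalings, pseudocounts and filters, the 6 libraries alone, the ribosomal share as a covariate, and each library left out; edgeR without combination 3 was added after seeing the data. The scripts were tested on simulated data. Marker sums were compared with an exact permutation test (scipy 1.17.1, Python 3.11.15). Depth is given as recovered reads, and the level of 3 reads covers counting error only.

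Genes named were Aurka, Bcl2, Bcl2l1, Bcl2l2 and Cdkn1a, the 10 largest changes in each direction among genes that passed with a mean value of at least 30, up to 5 members of each list by p, and the 5 smallest p-values of the difference between effects. Symbols that are clone names were left out of the 10 largest changes. Others are said to be chosen after their values were seen. The gene lists and the comparison were chosen with earlier results of these data known. Groups were taken from the treatment label and replicate numbers from the order of the records.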

Additional observations from a re-analysis of the deposited data

Results flagged for a closer look

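Avil, the advillin gene, was the 1 gene whose response to alisertib differed by test between tumours with and without navitoclax, by 4.21 on the log2 scale (4.215 ± 0.45, limma with Benjamini-Hochberg adjustment, adjusted p = 0.0198). Alisertib minus vehicle was −3.60 ± 0.32 without navitoclax, and combination minus navitoclax was 0.61 ± 0.32 with it. The 9 treated libraries had values from 19.0 to 61.5 and the 3 vehicle libraries from 291 to 375. The call was lost without any 1 vehicle or alisertib library, without combination 1 and without navitoclax 1.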

How the results depend on the processing

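The count of 202 genes in combination minus navitoclax stayed between 182 and 227 with edgeR, TMM scaling, other size factors, pseudocounts of 0.5 and 8, a CPM filter and no robust moderation. It was 1097 with DESeq2, 1628 with quality-weighted voom, 955 when the ribosomal share entered the fit, 358 without both libraries rich in ribosomal RNA, 117 with no filter, 98 with edgeR without combination 3 and 13 when the 6 libraries were fitted alone, where fewer libraries set the spread. The share of calls that were higher was 81.2%, but 61.5% with DESeq2, 56.0% with voom and 57.9% with the covariate. With the 6 libraries alone, all 13 calls were higher and 0 were lower. Leaving out each library gave 53 (without combination 1) to 293 (without combination 2). For alisertib minus vehicle the count of 148 was 663 with DESeq2, 1241 with voom and 1068 with the covariate, and 49 to 198 with a library left out. The count of 1 for the difference between both effects was 8 with DESeq2, 3 with voom, 3 with a pseudocount of 8, 0 without both rich libraries and 0 to 1 with a library left out. The cause of these moves was not tested where the construction does not show it. Of the genes that passed, 41 were named by the preset rules, without those chosen after their values were seen. None of the 41 changed direction under any alternative. With a library left out this was fixed in advance, because their groups did not overlap. Of these 41 genes, 36 passed with edgeR, 41 with DESeq2, 27 with no filter and 5 with the 6 libraries alone (Cpz, Svop, Zmat3, Tnfrsf10b and Btg2). No paired analysis was possible because the labels number no replicates. Depth limits combination 3, in which 3 reads stand for a value of 10.9, against 2.37 to 2.77 in the other libraries compared.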
